A study of Homo sapiens with 8 samples.

Results

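The 9 genes described here make, split and remove adenosine monophosphate (AMP) or sense the adenosine that comes from it, in EPC2-hTERT cells, a telomerase-immortalized line of human esophageal keratinocytes. They are ADSSL1, ADSS, ADSL, AMPD2, AMPD3, AK4, NT5E, ADORA2B and ADA, picked by gene symbol, with the DMOG and vehicle values of these same libraries in view, from a table of 25369 genes. All 9 are among the 11122 genes that reached 1 RPKM (reads scaled to gene length and to the library's total) in at least 4 libraries. ADORA2B did so through the vehicle libraries and DMOG replicate 2. The differences between DMOG and vehicle in these 9 genes are, because of that choice, given as a description, with their standard errors and without a test.

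The treated group was 4 libraries, from cultures at an air-liquid interface given 1 mM DMOG (dimethyloxalylglycine) for 18 h, and its control was 4 libraries from like cultures given the DMSO vehicle. All cultures came from the same cell line, of wild-type genotype per the labels, and had spent 5 days in 1.8 mM calcium and 4 days exposed to air. DMOG competes with 2-oxoglutarate and so inhibits prolyl hydroxylases, which otherwise target the alpha subunits of hypoxia-inducible factor (HIF) for breakdown. The comparison asks what this does to expression in esophageal epithelium. The labels do not say whether replicates are separate cultures, and a p-value here reflects only how these libraries vary, which may be technical.

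AMP is made from inosine monophosphate (IMP) in a pair of steps. Adenylosuccinate synthase joins aspartate to IMP, and adenylosuccinate lyase splits the product into AMP and fumarate. AMP deaminase turns AMP back into IMP, which closes the purine nucleotide cycle, while adenylate kinases pass phosphate between AMP and other nucleotides. Outside the cell, the ectonucleotidase CD73, encoded by NT5E, turns AMP into adenosine, which acts on G protein-coupled receptors and is removed by adenosine deaminase. In other epithelia and in endothelium, CD73 and the A2B receptor are known as parts of the response to low oxygen.

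Depth was 31245695 to 39931833 reads per library, as recovered from the RPKM values. CA9, a carbonic anhydrase induced by HIF, checks the treatment. It stood at 25.2, 2.56, 9.97 and 57.5 RPKM in DMOG replicates 1 to 4, against 0.925, 1.29, 0.129 and 0.586 RPKM in vehicle replicates 1 to 4. The replicate 2 library of the DMOG group resembled vehicle cultures more than its own group, with a root mean square log2 difference over all tested genes of 0.19 to 0.32 from each of them and 0.46 to 0.73 from the other DMOG libraries. The vehicle libraries differed from each other by 0.23 to 0.42. The authors' deposited group means were made from replicates 1, 3 and 4 of each group. Differences of the genes described without a test are given over all 8 libraries and over these 6. Log2 differences of other single genes, and counts for parts of the purine lists, are over these 6 only. Over all 8 libraries, 0 of the 11122 tested genes passed an adjusted p of 0.05 (limma-trend). Squamous markers were present (6 of 6 reached 1 RPKM, KRT5 at 3922 RPKM or more). Of 7 markers of other cell types, PTPRC, CD3E, COL1A2, COL3A1 and PECAM1 were at or near 0 in every library. Their sum with VWF was 0.875 to 1.70 RPKM in DMOG libraries and 1.41 to 1.96 RPKM in vehicle libraries. CD68, a lysosomal protein also listed as a macrophage marker, brought the sum of all 7 to 62.6 to 94.8 RPKM with DMOG and 44.6 to 74.8 RPKM with vehicle.

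RefSeq windows before transcription starts of 4 members are shown here, so that the letters bound by HIF can be looked for in them. ADSSL1 and AK4 were higher with DMOG over the 6 libraries, and ADORA2B and ADSS were lower. The windows shown are a part of the 19 listed for the members. They were not picked by a rule and do not stand for the rest. The core letters ACGTG or GCGTG on either strand are in capitals, with overlapping matches taken as 1 site. Windows are the 250 bases before a listed start on GRCh38.p14, in the direction of the gene. They are chr14:104723979-104724228 and chr14:104729594-104729843 (plus strand) for ADSSL1, chr1:65147302-65147551 (plus) for AK4, chr17:15944880-15945129 (plus) for ADORA2B and chr1:244452061-244452310 (minus) for ADSS.
ADSSL1, upstream start: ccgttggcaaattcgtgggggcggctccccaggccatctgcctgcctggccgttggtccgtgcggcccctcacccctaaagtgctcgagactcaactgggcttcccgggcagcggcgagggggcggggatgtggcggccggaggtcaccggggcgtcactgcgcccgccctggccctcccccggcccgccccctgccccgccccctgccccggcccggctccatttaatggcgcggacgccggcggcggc
ADSSL1, downstream start: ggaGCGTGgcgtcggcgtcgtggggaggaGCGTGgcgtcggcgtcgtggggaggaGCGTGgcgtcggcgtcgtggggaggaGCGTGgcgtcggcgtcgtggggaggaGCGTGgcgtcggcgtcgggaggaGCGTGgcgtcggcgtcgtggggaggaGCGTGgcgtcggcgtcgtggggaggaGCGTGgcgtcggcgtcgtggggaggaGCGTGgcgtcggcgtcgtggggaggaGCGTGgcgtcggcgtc
AK4, upstream start: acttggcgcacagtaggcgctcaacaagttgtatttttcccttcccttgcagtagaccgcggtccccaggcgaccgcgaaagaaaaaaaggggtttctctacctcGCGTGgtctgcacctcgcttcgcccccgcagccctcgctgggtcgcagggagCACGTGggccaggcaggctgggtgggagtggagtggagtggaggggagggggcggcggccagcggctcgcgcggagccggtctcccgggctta
ADORA2B: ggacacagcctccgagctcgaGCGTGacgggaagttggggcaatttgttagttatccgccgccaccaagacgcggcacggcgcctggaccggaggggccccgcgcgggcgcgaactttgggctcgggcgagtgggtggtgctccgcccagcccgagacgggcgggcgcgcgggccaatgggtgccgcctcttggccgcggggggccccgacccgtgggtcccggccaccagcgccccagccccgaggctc
ADSS, upstream start: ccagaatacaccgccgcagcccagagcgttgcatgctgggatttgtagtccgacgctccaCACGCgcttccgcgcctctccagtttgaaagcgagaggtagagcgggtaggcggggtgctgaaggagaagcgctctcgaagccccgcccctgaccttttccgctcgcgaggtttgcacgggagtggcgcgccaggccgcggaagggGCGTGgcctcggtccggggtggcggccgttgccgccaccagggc

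Of 35116 RefSeq windows of this length, 43.2% held at least 1 site, 16.2% at least 2, and 0.0399% (14 windows) at least 10. RefSeq, which names ADSSL1 as ADSS1 and ADSS as ADSS2, listed 19 windows for 8 of the 9 genes, ADSL being the other, and 11 of the 19 (57.9%) held a site. The ADSS windows overlap and share a GCGTG, which is counted in each, and other genes also have several windows. The 19 are thus not independent, and no excess over the 43.2% is read from them. The downstream ADSSL1 window is a tandem repeat in which GCGTG occurs 10 times, whereas the upstream window holds none. The upstream AK4 window holds GCGTG and the palindrome CACGTG, which 6.34% of all windows contain. The first AMPD2 window also holds CACGTG, and 3 of the 4 AMPD3 windows hold no site. The later AK4 windows hold 0, 3 and 1 sites, the NT5E window 0 and the ADA window 1. A match describes the letters of the window only, and the RPKM values do not say which start was used.

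**Figure D1:**
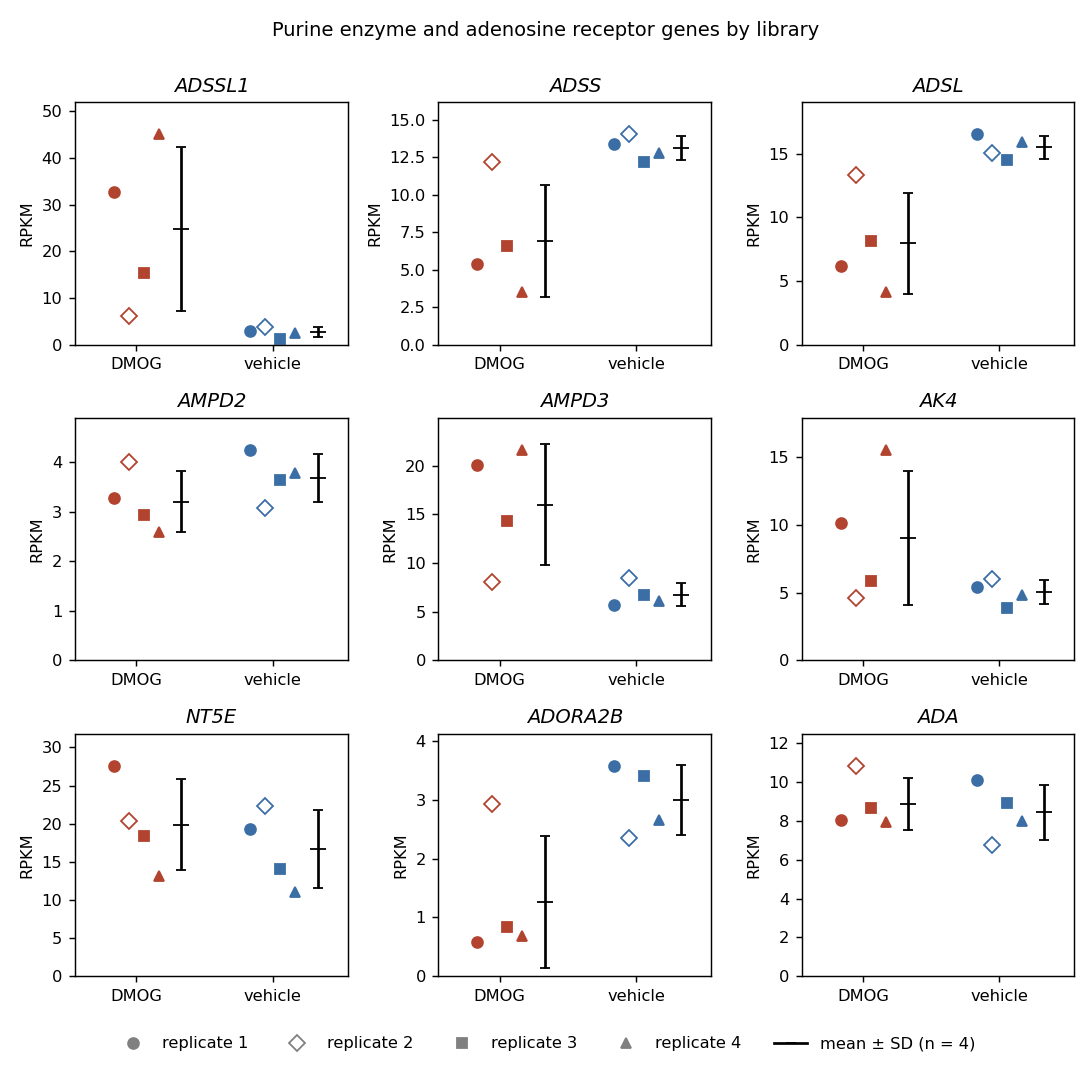
RPKM of the 9 genes in each library (vertical axes from 0), DMOG at the left and vehicle at the right of each panel. Symbols are replicates, with replicate 2 open, and the bars are mean ± SD of 4 libraries. ADSSL1 and ADSL do not overlap between the groups, and DMOG replicate 2 lies by the vehicle libraries in ADSS, AMPD3, AK4 and ADORA2B.

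The adenylosuccinate synthases stood in opposite directions. ADSSL1 (chromosome 14, 105190534 to 105213647 on hg19, 2078 bases), the isozyme known from muscle, had 32.7, 6.06, 15.3 and 45.1 RPKM in DMOG replicates 1 to 4. In vehicle replicates 1 to 4 it had 2.97, 3.87, 1.31 and 2.49 RPKM. Each DMOG library lay above each vehicle library, DMOG replicate 2 by the least. DMOG minus vehicle came to a log2 difference of 2.72 ± 0.57 (SE, n = 4 each) over 8 libraries and 3.46 ± 0.41 (n = 3 each) over the authors' 6, on the scale of log2(RPKM + 1) after median-ratio scaling. ADSSL1 rested on 430 to 2930 reads in DMOG libraries and 109 to 280 reads in vehicle libraries.

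ADSS (chromosome 1, 244571794 to 244615436), the isozyme found in most tissues, had 5.41, 12.2, 6.59 and 3.53 RPKM with DMOG, against 13.4, 14.1, 12.2 and 12.8 RPKM with vehicle. DMOG replicates 1, 3 and 4 were below all vehicle libraries, and DMOG replicate 2 was level with the lowest of them. ADSS thus differed by -0.75 ± 0.24 (log2) over 8 libraries and by -0.92 ± 0.17 over 6. ADSSL1 made up 85.8%, 33.1%, 69.8% and 92.7% of the summed RPKM of both synthases in DMOG replicates 1 to 4, against 18.1%, 21.6%, 9.76% and 16.3% in vehicle replicates 1 to 4. The sum was 38.1, 18.3, 21.9 and 48.7 RPKM with DMOG and 16.4, 17.9, 13.5 and 15.3 RPKM with vehicle, so the rarer synthase of vehicle cultures was the more abundant in DMOG replicates 1, 3 and 4.

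**Figure D2:**
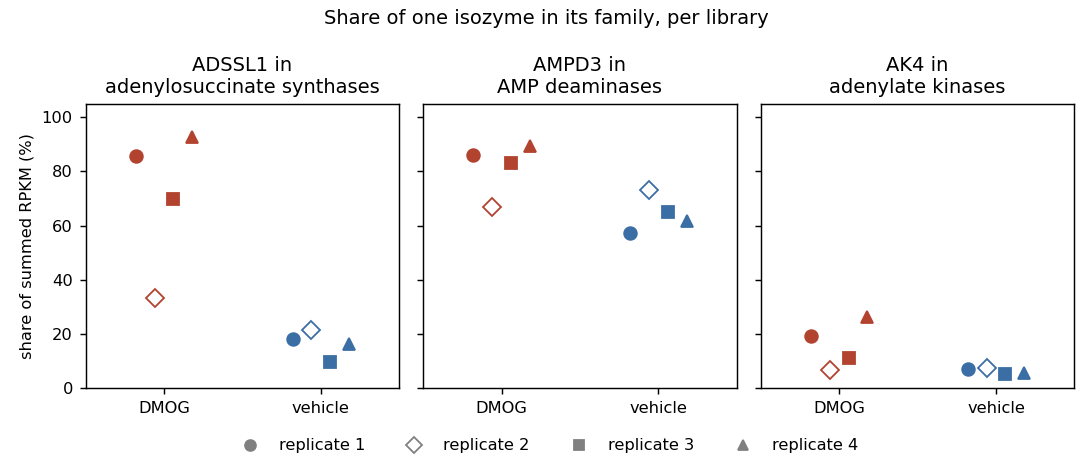
Share of ADSSL1 in the RPKM of both adenylosuccinate synthases, of AMPD3 in that of 3 AMP deaminases and of AK4 in that of 9 adenylate kinases (vertical axis, percent), per library, DMOG left of vehicle. The ADSSL1 share is 69.8% to 92.7% in DMOG replicates 1, 3 and 4, 33.1% in DMOG replicate 2 and 9.76% to 21.6% with vehicle.

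ADSL (chromosome 22, 40742504 to 40762575), the lyase that releases AMP and also acts in IMP synthesis, had 6.21, 13.3, 8.11 and 4.14 RPKM with DMOG, against 16.5, 15.0, 14.5 and 15.9 RPKM with vehicle. All 4 DMOG libraries were below all 4 vehicle libraries, although DMOG replicate 2 was only just below. The log2 difference was -0.79 ± 0.22 over 8 libraries and -0.99 ± 0.18 over 6. ADSL and ADSS had close profiles over the 8 libraries, with a root mean square difference of 0.07 on the centred log2 scale.

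AMPD3 (chromosome 11, 10471868 to 10529126), the AMP deaminase first known from red cells, had 20.1, 8.05, 14.3 and 21.6 RPKM with DMOG, against 5.73, 8.44, 6.77 and 6.07 RPKM with vehicle. DMOG replicates 1, 3 and 4 were above all vehicle libraries, and DMOG replicate 2 was inside their range. AMPD3 had a log2 difference of 1.25 ± 0.32 over 8 libraries and 1.71 ± 0.19 over 6. AMPD2 (chromosome 1, 110162435 to 110174677), the deaminase first known from liver, had 3.29, 4.01, 2.92 and 2.59 RPKM with DMOG, against 4.25, 3.07, 3.64 and 3.77 RPKM with vehicle. Its groups overlapped, and its log2 difference was 0.00 ± 0.11 over 8 libraries and -0.08 ± 0.11 over 6 (-0.16 and -0.31 without scaling factors). AMPD1, the muscle deaminase, was at 0.0239 RPKM or less in every library. The AMPD3 share of the deaminase RPKM was 83.0% to 89.3% in DMOG replicates 1, 3 and 4, 66.7% in DMOG replicate 2 and 57.4% to 73.2% with vehicle.

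AK4 (chromosome 1, 65613232 to 65697828) is an adenylate kinase of the mitochondrial matrix and a known HIF-1 target in other cells. It had 10.1, 4.61, 5.87 and 15.5 RPKM with DMOG, against 5.44, 6.03, 3.88 and 4.84 RPKM with vehicle. DMOG replicates 1 and 4 were above all vehicle libraries, and replicates 2 and 3 were inside their range. For AK4 the log2 difference was 0.80 ± 0.35 over 8 libraries, 0.48 without DMOG replicate 4, and 1.19 ± 0.33 over 6. RefSeq lists 6 pseudogenes named after AK4, and the labels do not give how reads shared with them were counted, so its level is uncertain. AK4 supplied 19.3%, 6.58%, 11.3% and 26.3% of the RPKM of 9 adenylate kinases in DMOG replicates 1 to 4 and 5.26% to 7.40% with vehicle.

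NT5E (chromosome 6, 86159302 to 86205509) had 27.6, 20.4, 18.4 and 13.2 RPKM with DMOG, against 19.3, 22.4, 14.1 and 11.1 RPKM with vehicle. The groups overlapped over most of their range. Within a number, DMOG over vehicle was 1.43, 1.30 and 1.19 for numbers 1, 3 and 4 and 0.912 for number 2. NT5E differed by 0.44 ± 0.26 (log2) over 8 libraries (0.27 without DMOG replicate 1 and 0.25 without vehicle replicate 4) and 0.65 ± 0.28 over 6 (0.39 without DMOG replicate 1). Without scaling factors these values were 0.24 and 0.36. With the replicate number as a block it was 0.65 ± 0.10 over 6.

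ADORA2B (chromosome 17, 15848231 to 15879210), the A2B adenosine receptor, had 0.586, 2.93, 0.837 and 0.679 RPKM with DMOG, against 3.58, 2.35, 3.40 and 2.66 RPKM with vehicle. DMOG replicates 1, 3 and 4 were below all vehicle libraries, and DMOG replicate 2 was inside their range. These levels came from 37, 189, 51 and 40 reads in DMOG replicates 1 to 4 and 154 to 256 reads in vehicle libraries. RefSeq lists 1 pseudogene named after ADORA2B, and how reads shared with it were counted is not given, so its level is also uncertain. The log2 difference was -0.80 ± 0.25 over 8 libraries and -1.13 ± 0.14 over 6, and with a pseudocount of 0.1 in place of 1 it was -1.26 and -1.77, since the pseudocount compresses low values. ADORA1 and ADORA3 were listed at 0 in all 8 libraries and ADORA2A at 0.0325 RPKM or less, so ADORA2B made up 95.4% or more of the adenosine receptor RPKM in every library.

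ADA (chromosome 20, 43248163 to 43280376), which turns adenosine into inosine, had 8.07, 10.8, 8.68 and 7.94 RPKM with DMOG, against 10.1, 6.77, 8.91 and 7.99 RPKM with vehicle. The groups overlapped. The log2 difference was 0.26 ± 0.12 over 8 libraries and 0.16 ± 0.11 over 6, but -0.11 over 6 without scaling factors and 0.07 without vehicle replicate 4.

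**Figure D3:**
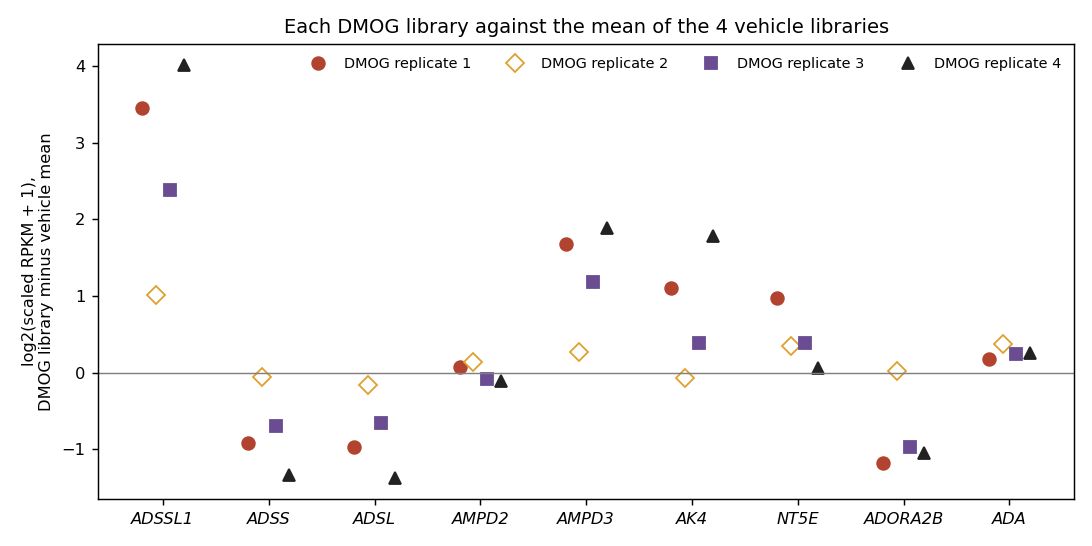
Difference of each DMOG library from the mean of the 4 vehicle libraries in log2(scaled RPKM + 1) (vertical axis), for the 9 genes. In ADSSL1, ADSS, ADSL, AMPD3 and AK4 replicate 4 is the farthest from the zero line, then replicate 1, then replicate 3, and replicate 2 is the nearest to it, as it is in ADORA2B.

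The DMOG libraries kept 1 order in several genes. Replicate 4 was the highest, then 1, then 3, then 2 in ADSSL1, AMPD3 and CA9, and the order was reversed in ADSS and ADSL. AK4 had the same order as ADSSL1. In ADORA2B, replicates 1, 3 and 4 differed little, at 0.586 to 0.837 RPKM. The values of DMOG replicate 2 relative to the vehicle mean were 1.01 for ADSSL1, 0.26 for AMPD3, -0.07 for AK4, -0.06 for ADSS, -0.17 for ADSL and 0.02 for ADORA2B on the log2 scale.

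In vehicle cultures, NT5E was the most abundant of the 9 per length (16.7 ± 5.07 RPKM, SD, n = 4), followed by ADSL (15.5 ± 0.919), ADSS (13.1 ± 0.814), ADA (8.44 ± 1.41), AMPD3 (6.75 ± 1.21), AK4 (5.05 ± 0.918), AMPD2 (3.68 ± 0.486), ADORA2B (2.35 to 3.58 RPKM over the 4 libraries) and ADSSL1 (2.66 ± 1.07). Neighbours in this order overlapped in range, apart from ADSL with ADSS and ADSS with ADA. With DMOG, ADSSL1 led with 24.8 ± 17.5 RPKM, and all neighbours overlapped.

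The genes with the closest profile over the 8 libraries, by root mean square difference of centred log2 values, were NDUFA4L2 (0.33), LOXL2 (0.39) and P4HA1 (0.41) for ADSSL1, whose own root mean square deviation was 1.61. They were QSOX1 (0.12), C4orf3 (0.14) and IL22RA1 (0.14) for AMPD3, and CDKN2C, RNF24 and EVC (0.13 each) for AK4. For ADSL they were TXNDC5 (0.03), ACP2 (0.06) and RNASEH2B (0.06), and for ADSS they were MRPS23, ACP2 and ADSL (0.07 each). HNRNPL, MFSD3 and NTN4 were closest to ADORA2B (0.10, 0.10 and 0.11), FSTL1, LAMA3 and CAMK2N1 to NT5E (0.12, 0.12 and 0.13), MLH3, XRRA1 and AGTRAP to AMPD2 (0.03, 0.04 and 0.04), and ULBP2, LOC100506100 and TBC1D2B to ADA (0.07, 0.08 and 0.10). The libraries share the treatment split, so these are descriptions.

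In the authors' deposited table the log2 ratio of DMOG to vehicle means was 4.12 for ADSSL1, 1.91 for AMPD3, 1.49 for AK4, 0.71 for NT5E and 0.18 for ADA. The authors' deposited table gave -0.10 for AMPD2, -1.01 for ADSS, -1.05 for ADSL and -1.90 for ADORA2B. These are ratios of group means with no pseudocount, a measure unlike the differences of log2(RPKM + 1) above. With a pseudocount of 0.1 in place of 1, the ADSSL1 difference over 6 libraries was 3.96. Over the 6 libraries, 6 of the 9 genes were past an adjusted p of 0.05 (limma-trend, Benjamini-Hochberg over all genes), where 29.8% of all tested genes were, and 0 of 9 over 8 libraries, where 0% were. With the replicate number as a block over the 6, 4 of the 9 were higher and 3 lower, where 40.6% of all tested genes passed. NT5E was past the threshold only with the block. On the scaled values, 2 of the 9, ADSSL1 and ADSL, did not overlap between 4 and 4 libraries, against 12.4% of tested genes, and 6 did not between 3 and 3, against 51.3%. As the genes were chosen with this comparison known, nothing is read from these counts.

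The rest of purine metabolism was taken from lists chosen by function, with 84 other genes, of which 53 passed the filter. Over 6 libraries 2 of the 53 were higher with DMOG, 15 were lower and 36 did not pass (limma-trend, adjusted p under 0.05), or 32.1%, near the 29.8% of all genes. By direction, 28.3% of the 53 were lower, against 16.1% of all genes, and 2 of the 53 were higher, against 13.7% of all genes. The 15 lower genes include PFAS, which passed the filter through the vehicle libraries and DMOG replicate 2, so its place carries no weight. The median log2 difference was -0.18, and 0.00 over all genes. With the replicate number as a block, 6 were higher and 19 lower, when 19.6% of all genes were higher and 21.0% lower (40.6% in all). Over all 8 libraries limma-trend called 0 higher and 0 lower, with 3 and 15 at an unadjusted p under 0.05 (14.0% and 16.3% of all genes), limma-voom on recovered reads also called 0 and 0, and without DMOG replicate 2 the counts were 2 and 18. Over 6 libraries the lower genes numbered 5 without DMOG replicate 1, 3 without vehicle replicate 1, 6 without vehicle replicate 3 and 3 without vehicle replicate 4. The higher genes numbered 1 without each of these libraries and 6 without DMOG replicate 3. Without scaling factors, when the median of all genes was -0.26, 1 purine gene was higher and 27 lower, beside 682 higher and 3836 lower genes in all, against 1526 and 1792 with the factors.

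**Figure D4:**
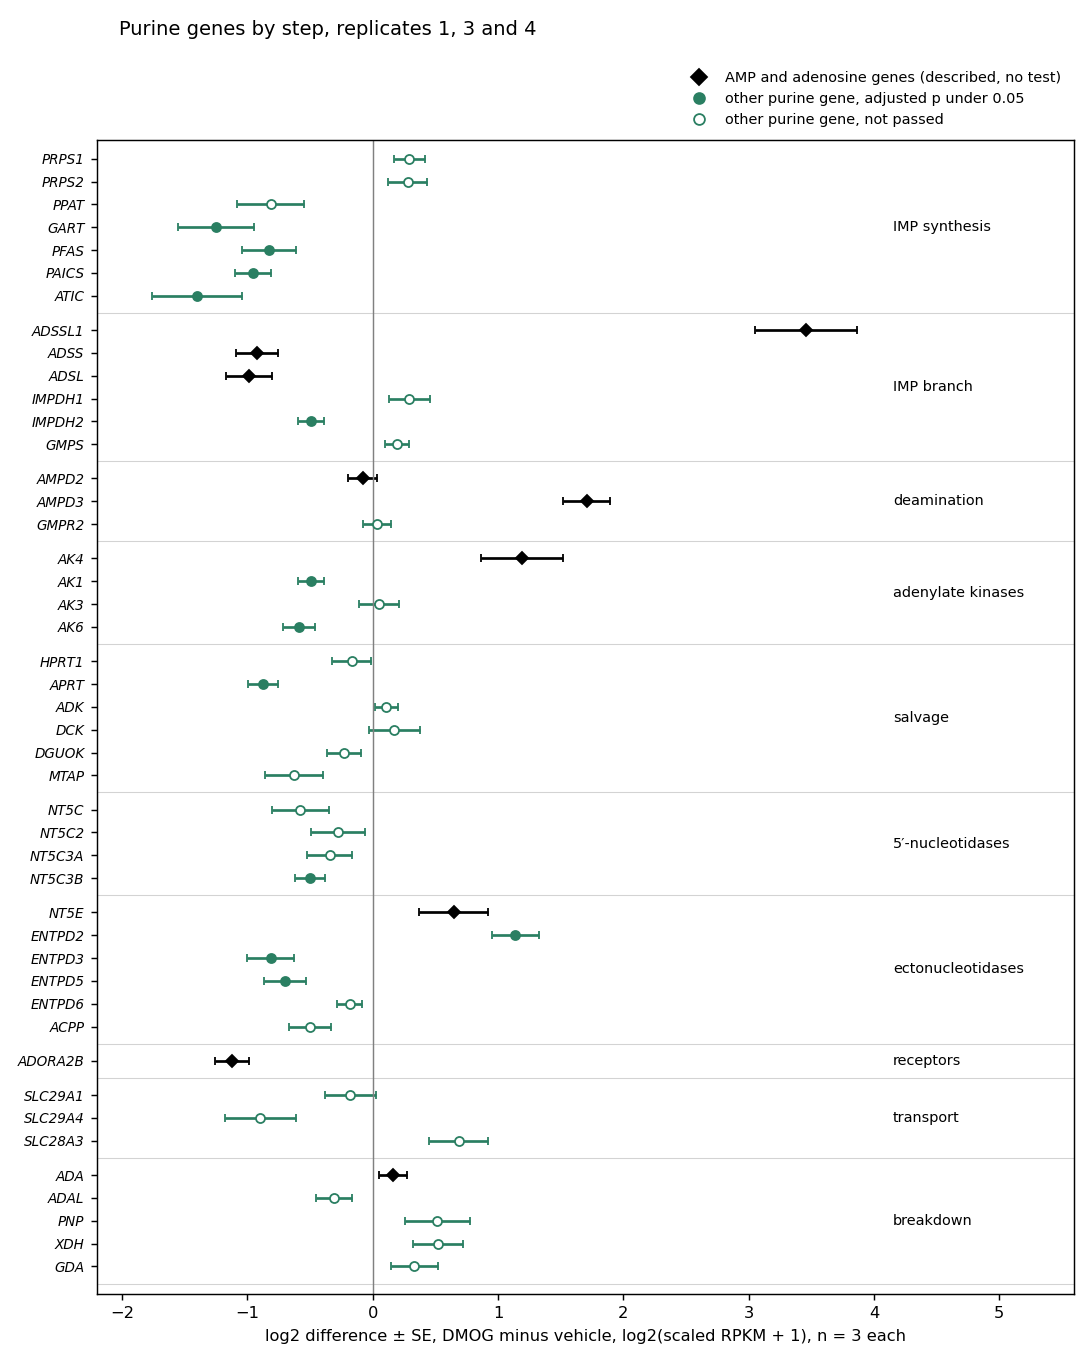
Log2 difference ± SE, DMOG minus vehicle, over replicates 1, 3 and 4 (horizontal axis, n = 3 each) for the purine genes shown, all of which passed the filter. Diamonds are the 9 genes described without a test; filled circles are other genes with an adjusted p under 0.05. ADSSL1, at 3.46, is the farthest from 0, and the IMP synthesis genes from PPAT to ATIC lie between -1.40 and -0.82.

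Upstream of the adenylosuccinate step, 4 of 7 genes of IMP synthesis fell with DMOG over 6 libraries and 0 rose, where 16.1% of all genes fell and 13.7% rose. ATIC, which closes the IMP ring, fell to 6.97 ± 4.60 RPKM with DMOG, against 21.7 ± 0.797 RPKM with vehicle (SD, n = 3 each, log2 difference -1.40 ± 0.36 SE, limma adjusted p = 0.0286). GART, a folate-dependent enzyme of several steps, fell to 6.90 ± 3.80 RPKM, against 19.9 ± 0.839 RPKM with vehicle (-1.25 ± 0.30, limma adjusted p = 0.0246). PAICS, whose product is the other substrate of ADSL, fell to 10.3 ± 2.49 RPKM, against 25.3 ± 2.23 RPKM with vehicle (-0.96 ± 0.15, limma adjusted p = 0.0076). PFAS, at 0.461 ± 0.440 RPKM with DMOG and 1.77 ± 0.203 RPKM with vehicle, fell by 0.83 ± 0.22 on the log2 scale (limma adjusted p = 0.0306), and by 1.79 with a pseudocount of 0.1. PFAS passed the filter through the 4 vehicle libraries and DMOG replicate 2, with DMOG replicates 1, 3 and 4 under 1 RPKM, so its place in the count carries no weight. PPAT, the committed step, had a difference of -0.82 ± 0.26 and did not pass (limma adjusted p = 0.0555, and 0.0377 with the replicate block). PRPS1 and PRPS2, which supply phosphoribosyl pyrophosphate, had differences of 0.29 ± 0.12 and 0.28 ± 0.16 and did not pass. The calls of ATIC and GART were lost without DMOG replicate 1, without any 1 of the vehicle libraries and with no filter on low values, and that of PFAS also without DMOG replicate 4.

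In the branch from IMP to GMP, IMPDH2, the inosine monophosphate dehydrogenase of dividing cells, fell to 49.4 ± 1.63 RPKM with DMOG, against 86.4 ± 6.07 RPKM with vehicle (SD, n = 3 each, -0.49 ± 0.10 SE, limma adjusted p = 0.016). IMPDH1 and GMPS did not pass (0.29 ± 0.16 and 0.19 ± 0.10). Among the other adenylate kinases, the nuclear AK6 (-0.59 ± 0.13, limma adjusted p = 0.0181) and the cytosolic AK1 (-0.49 ± 0.11, 0.0161) fell, while AK3, also of the mitochondrial matrix, had a difference of 0.05 ± 0.16 and did not pass. AK1 had 17.4 ± 1.56 RPKM with DMOG, against 30.6 ± 2.84 RPKM with vehicle. IMPDH2 lost its call without DMOG replicate 1 or vehicle replicate 1 or 4, AK1 without DMOG replicate 1 or vehicle replicate 3 or 4, and AK6 without DMOG replicate 1 or any 1 vehicle library.

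Of 6 salvage genes 1 fell and 0 rose, where 16.1% of all genes fell and 13.7% rose. With the replicate block MTAP was lower as well (-0.63, limma adjusted p = 0.0289), where 21.0% of all genes were lower. The gene called without the block was APRT, which rebuilds AMP from adenine, at 37.9 ± 6.20 RPKM with DMOG, against 86.3 ± 6.59 RPKM with vehicle (SD, n = 3 each, -0.88 ± 0.12 SE, limma adjusted p = 0.0061). ADK, which rephosphorylates adenosine to AMP, had a difference of 0.11 ± 0.09 and did not pass. Of 4 intracellular 5′-nucleotidases that passed the filter 1 fell, where 16.1% of all genes did. It was NT5C3B (-0.50 ± 0.12, limma adjusted p = 0.0249, lost without any 1 vehicle library). The most abundant of the 4, NT5C2, had -0.28 ± 0.22 and did not pass. With the replicate block NT5C was lower too (-0.58, limma adjusted p = 0.0343). AHCY, which releases adenosine from S-adenosylhomocysteine, fell to 39.9 ± 4.78 RPKM with DMOG, against 74.6 ± 4.59 RPKM with vehicle (-0.59 ± 0.13, limma adjusted p = 0.0171, lost without vehicle replicate 1 or 4).

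Of 5 other ectonucleotidases that passed the filter 1 rose and 2 fell, where 13.7% of all genes rose and 16.1% fell. ENTPD2, which removes phosphate from extracellular ATP, rose to 11.8 ± 2.45 RPKM with DMOG, against 5.95 ± 0.614 RPKM with vehicle (SD, n = 3 each, 1.14 ± 0.19 SE, limma adjusted p = 0.0088). ENTPD3, also at the cell surface, fell (-0.81 ± 0.19, limma adjusted p = 0.0206), as did ENTPD5 of the endoplasmic reticulum (-0.70 ± 0.17, 0.0228). ENTPD1 (CD39) was among the 6 below the filter. P2RY2, a receptor for extracellular ATP and UTP, rose by 0.79 ± 0.22 (limma adjusted p = 0.0378). The calls of ENTPD3, ENTPD5 and P2RY2 were lost without DMOG replicate 1 or vehicle replicate 1 or 4, those of ENTPD5 and P2RY2 also without vehicle replicate 3, and that of P2RY2 also without scaling factors and without a filter.

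Of 3 nucleoside transporters and 4 genes of purine breakdown that passed the filter, 0 were called in either direction; at an unadjusted p under 0.05, limma-trend had 1 transporter higher and 1 lower, and 1 breakdown gene higher (21.6% of all genes were higher and 23.3% lower by that measure). With the replicate block, SLC28A3, PNP and XDH were higher (limma adjusted p = 0.0125, 0.0208 and 0.0235) and SLC29A4 lower (0.0087). Of 7 genes of AMP-activated protein kinase and its upstream kinases 2 fell, the gamma subunits PRKAG1 (-0.48 ± 0.11, limma adjusted p = 0.0212) and PRKAG2 (-0.39 ± 0.12, 0.0476), which bind AMP, where 16.1% of all genes fell. With the replicate block PRKAB2, a beta subunit, was higher (0.68, limma adjusted p = 0.0434). Both gamma subunit calls were lost without DMOG replicate 1 or any 1 vehicle library, and that of PRKAG2 also without DMOG replicate 4 or a filter. Beside these changes, CD68 rose over the 6 libraries (0.79 ± 0.23, limma adjusted p = 0.0388), as did 2 of the 6 squamous markers, the basal keratins KRT5 (0.75 ± 0.19, 0.0292) and KRT14 (0.69 ± 0.14, 0.0154). The other squamous markers did not pass: the basal factor TP63 had -0.28 ± 0.11, KRT4 had -0.56 ± 0.62, KRT13 had 0.09 ± 0.73, and IVL, of the upper layers, had 1.24 ± 0.40. IVL was higher with the replicate block (limma adjusted p = 0.0073). In bulk RNA, fewer cells of a type and less RNA per cell cannot be told apart, and the part of such shifts in the purine genes was not tested.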

How the data were processed

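The authors deposited RPKM values for 25369 genes in 8 libraries, in a table named as raw counts, and a table of their own comparison. Per the submitters' processing notes, TopHat2 2.0.13, Bowtie2 2.2.3.0 and HTSeq 0.6.1 were among the tools, and both hg19 and hg38 are named. Gene positions follow hg19, going by the alternate chromosome 6 names listed. Per the file headers, the authors' table holds group means on a normalized signal scale, their fold ratio and log2 ratio, and a raw and an adjusted p-value, which was not used.

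RPKM times gene length was a whole multiple of 1 read for 100% of values above 0 (tolerance 0.01 reads), which gave library totals and reads per gene. RPKM were divided by median-ratio factors, and log2(RPKM + 1) was fitted with limma-trend (limma 3.58.1, R 4.3.3, robust, two-sided, Benjamini-Hochberg, threshold 0.05) on 11122 genes with 1 RPKM or more in at least 4 libraries, over 8 libraries and over the 6 that a least-squares fit of recovered reads showed to make up the authors' means. Their header calls the means A and B only, and that fit gave vehicle libraries for A and DMOG libraries for B. The limma fit was run on simulated reads with the same spread setting for all genes and both groups. That run checked the code and says nothing about the calls made here. Means ± SD are RPKM as deposited. The 9 genes, the purine lists and the tests were chosen with earlier results of these data known. Named genes are the 9, their paralogs, other purine genes called over 6 libraries, the most abundant of a list, CA9, EGLN3 and PDK1, and the 3 closest profiles. PPAT, PRPS1, PRPS2, IMPDH1, GMPS, ADK, ENTPD1, MTAP, PRKAB2, SLC28A3, SLC29A4, PNP, XDH and the marker genes named were chosen after their values were seen. Same-numbered libraries deviated together over 6 libraries (correlations 0.47, 0.40 and 0.34), and the labels do not say why, so fits with the replicate number as a block are given where they change a call. A gene of the purine lists enters the counts and is not reported here by itself. None of the 9 overlaps another listed gene. Motif letters were searched in RefSeq windows of GRCh38.p14. Read numbers are given without an interval.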

Additional observations from a re-analysis of the deposited data

Results flagged for a closer look

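ADORA2B in DMOG replicate 2, at 2.93 RPKM, stood far from the other DMOG libraries, at 0.586 to 0.837 RPKM. IMPDH2 in the same library, at 77.9 RPKM, stood far from the other DMOG libraries, at 48.2 to 51.3 RPKM. PRKAG2 in vehicle replicate 2, at 5.88 RPKM, lay below the other vehicle libraries, at 6.38 to 6.42 RPKM. In each case the gap to the nearest library took up more of the group's range than the 95% critical value of Dixon's test for 4 samples. Such a gap arises by chance in about 1 of 20 groups, and 52 groups were looked at. They were the groups of the genes described without a test and of the other purine genes called without the libraries numbered 2. Those calls favour genes whose remaining libraries lie close together, and so favour stray values in the libraries numbered 2. The rate of 1 in 20 is thus no fair guide here. All 3 values come from the libraries numbered 2, which the authors' deposited group means leave out. No reason for this is given in the labels or headers.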

How the results depend on the processing

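Over 6 libraries, RPKM as deposited, whose median gene stood at -0.26, gave 682 genes higher and 3836 lower, against 1526 and 1792 with scaling factors, and 1 and 27 of the other purine genes, against 2 and 15. With no filter 1 purine gene was higher, and with the replicate block 6 were. Leaving out 1 library gave 379 to 2224 genes higher and 539 to 2527 lower, and 1 to 6 purine genes higher and 3 to 20 lower. Over 8 libraries the ranges were 0 to 1724 and 0 to 1970 genes, and 0 to 2 and 0 to 18 purine genes, with all values above 0 coming from leaving out DMOG replicate 2. There same-numbered libraries deviated together for numbers 3 and 4 but not for 1 and 2 (correlations 0.07, -0.02, 0.53 and 0.24 for numbers 1 to 4). Over the 8 libraries the block called 0 genes. PAICS, APRT and ENTPD2 passed under all 12 alternatives over 6 libraries, and did not pass over 8. In DMOG replicate 2, PAICS was at 25.6 RPKM, inside the vehicle range of 19.9 to 26.8 RPKM. APRT there was at 75.9 RPKM, against 80.7 to 93.5 RPKM with vehicle. ENTPD2 there was at 6.80 RPKM, against 5.26 to 6.43 RPKM with vehicle. ADSSL1, ADSS, ADSL, AMPD3, AK4, NT5E and ADORA2B had the same sign under all 12 alternatives over 6 libraries and all 14 over 8. AMPD2 kept its sign in 9 of 14 over 8 libraries and ADA in 11 of 12 over 6, without scaling factors being the exception for ADA. The lower differences of IMPDH2, AK1, NT5C3B, PRKAG1, PRKAG2 and AHCY were -0.89 to -0.64 without scaling factors. On recovered reads, limma-voom called 1648 genes higher and 1742 lower over 6 libraries. The cause of these shifts was not tested. Depth limits the low genes, with 37 reads for ADORA2B and 18 for PFAS in their lowest libraries.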

Other observations

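EGLN3 and PDK1, a prolyl hydroxylase and a pyruvate dehydrogenase kinase that HIF is known to induce, give the scale of the treatment beside the purine genes. EGLN3 had 119, 9.93, 35.6 and 334 RPKM in DMOG replicates 1 to 4, against 5.46, 5.53, 13.2 and 11.1 RPKM in vehicle replicates 1 to 4. DMOG replicate 2 was inside the vehicle range. The log2 difference over replicates 1, 3 and 4 was 3.74 ± 0.78 (SE, n = 3 each, limma adjusted p = 0.0152). PDK1 had 2.94, 1.18, 1.99 and 6.56 RPKM with DMOG, against 1.12, 3.44, 1.29 and 1.38 RPKM with vehicle. Its highest vehicle value was in replicate 2, so that the groups overlapped over 8 libraries and did not over 6, where the log2 difference was 1.18 ± 0.35 (limma adjusted p = 0.0416).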
